A study of Mus musculus with 11 samples.

Results

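The features described here are the 221 non-coding transcripts, of 36097 unique features in the deposited table, that the table places in chromosomal domains where a cone gene is listed among the higher mRNAs. The rule took every feature whose list of higher mRNAs named any of 18 cone genes, and did not use the feature's own change. Of the 18 genes, 16 occurred in such a list and Clca3a2 and Pygm did not. The 221 features fell into 15 domains, because Opn1sw and Ccdc136 share a domain. Only the domains of Cnga3, Cngb3, En2, Kcne2 and Slc24a2 list no other higher mRNA, and that of Gnb3 lists 10 in all. Which of the listed genes a feature belongs with was not tested. The sources used here do not say how the domains and the mRNA lists were made, or from which libraries.

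Retinas were taken from mice at postnatal day 21, polyadenylated RNA was depleted and the rest was sequenced, in 5 libraries of wild-type mice and 6 libraries of mice lacking Nrl. The sources used here do not name the strain, the sex or the kind of Nrl allele. Replicates are numbered in the labels with no animal named, so a p-value speaks only of the spread among the 11 libraries, part of which may be technical. The question set by the labels is which non-coding transcripts differ when Nrl is missing. The only feature over the Nrl gene (MSTRG.28375) had 42.1 ± 9.42 (SD, n = 5) normalised counts in wild-type and 0.126 ± 0.310 (SD, n = 6) in knockout libraries, where it was listed at 0 in every library but knockout 5.

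Nrl is the transcription factor by which developing photoreceptors become rods, and the photoreceptors of retinas without it are known to resemble cones that express the short-wave opsin. Cones signal through an opsin, a cone-specific transducin, a phosphodiesterase that hydrolyses cyclic GMP and a cyclic nucleotide-gated channel, and each of these has a rod counterpart encoded by another gene. An antisense transcript runs over a gene on the strand opposite to it. A domain here is a stretch of chromosome within which genes and regulatory regions are taken to contact each other more often than they contact the rest of the genome. The stretches of Arr3 and Gngt2 carry the label interTAD, for regions between such domains, and are counted among the domains here.

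Features were placed by their distance from the GENCODE M21 start of the cone gene. For 4 of the genes with higher features over their GENCODE bodies, the 250 bases before the RefSeq start (build GRCm38.p6, the build also called mm10) are shown 5′ to 3′ on the gene's own strand. Capitals mark TAATCC or its reverse complement GGATTA, the core letters of sites bound by the photoreceptor factor CRX, and TGCTGA or its reverse complement TCAGCA, letters found in sites bound by NRL.
Opn1sw: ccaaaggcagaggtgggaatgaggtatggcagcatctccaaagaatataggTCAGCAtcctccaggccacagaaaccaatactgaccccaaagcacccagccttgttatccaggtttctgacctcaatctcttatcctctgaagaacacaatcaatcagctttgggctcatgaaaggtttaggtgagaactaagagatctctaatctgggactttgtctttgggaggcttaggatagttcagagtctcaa
Gnat2: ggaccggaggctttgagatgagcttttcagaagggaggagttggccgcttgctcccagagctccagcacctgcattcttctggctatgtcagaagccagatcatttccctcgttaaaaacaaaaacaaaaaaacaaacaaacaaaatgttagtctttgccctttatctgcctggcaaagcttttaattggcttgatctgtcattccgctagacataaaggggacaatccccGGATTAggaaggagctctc
Arr3: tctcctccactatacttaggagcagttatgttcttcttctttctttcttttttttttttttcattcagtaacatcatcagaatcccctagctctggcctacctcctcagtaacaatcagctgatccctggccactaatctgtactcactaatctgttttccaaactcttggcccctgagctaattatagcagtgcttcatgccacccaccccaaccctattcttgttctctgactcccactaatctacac
Pde6h: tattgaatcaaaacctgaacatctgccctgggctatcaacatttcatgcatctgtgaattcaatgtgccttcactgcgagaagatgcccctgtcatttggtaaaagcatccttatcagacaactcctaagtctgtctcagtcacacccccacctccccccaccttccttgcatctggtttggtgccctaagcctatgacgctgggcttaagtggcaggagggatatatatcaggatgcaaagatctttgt

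These stretches lie at chr6:29380514-29380763 on the minus strand, chr3:108092816-108093065 on the plus strand, chrX:100605247-100605496 on the plus strand and chr6:136954273-136954522 on the plus strand. The RefSeq and GENCODE starts are 7.955 kb apart for Opn1sw and 30.7 kb apart for Pde6h, so for these 2 genes the stretch shown is not next to the point from which distances were taken. The RefSeq gene bodies of Gnat2 and Pde6h used below begin earlier, at chr3:108086788 and chr6:136952218. The stretches shown for Gnat2 and Pde6h, before RefSeq starts at chr3:108093066 and chr6:136954523, lie inside these gene bodies. RefSeq promoters were found for 12 of the 18 genes, and in 300 bases around the start (250 before and 50 after, both strands searched) GGATTA or TAATCC stood in those of Gnat2 and Otop3. The same letters stood in 7.06% of all 32851 promoters of that length. TGCTGA or TCAGCA stood in the promoters of Opn1sw, Fabp7 and Clca3a2, and in 19.5% of all promoters. A match of letters is a description and not a bound site.

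Of the 221 features, 134 had a mean of at least 5 normalised counts over the 11 libraries and were tested, and 87 were below this filter. Among the tested features 56 were higher and 13 lower in knockout retinas (limma on log2 of the normalised count plus 1, Benjamini-Hochberg adjusted p below 0.05 over all 21395 tested features). That is 41.8% higher and 9.70% lower, where 15.6% of all tested features were higher and 12.6% lower. The median log2 difference of the tested features was 0.30, against -0.02 over all tested features, and 65 of the 134 were not called. The 2 tested features with no wild-type read lay above this median also at their lower bounds. Calls of a rise of at least 2-fold on this scale numbered 50, or 37.3% of the 134, and those of at least 8-fold 14, or 10.4%, against 12.8% and 2.64% of all tested features. Calls of a fall of at least 2-fold numbered 9, or 6.72% of the 134, against 9.53% of all tested features. Values of the 2 genotypes did not overlap in 42 higher features, which is 31.3% of the 134, against 10.9% of all tested features. They did not overlap in 7 lower features, which is 5.22%, against 8.82%. These shares of lower features all come from the same 13 calls, and whether they differ from those over all tested features was not tested. In other domains that list any higher mRNA 10.3% of tested features were lower.

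On the whole reads of 9 libraries edgeR called 54 higher and 12 lower, against 15% and 11.8% of all tested features, and DESeq2 53 and 11, against 13.8% and 11.7%. With a mean of at least 20, where 57 of the 221 were tested, 25 were higher (43.9%) and 9 lower (15.8%), against 20.8% and 19.7% of all features tested there. Without the filter on low values, all 221 features were tested and 76 were higher and 17 lower, where 12% of all 36097 features were higher and 9.12% lower. In the authors' deposited table, at an adjusted p below 0.05, 74 of them were higher and 17 lower, against 10.9% and 8.48% of all features. Of 8305 tested features in other domains that list any higher mRNA, 24.9% were higher and 10.3% lower.

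Some features were read only in knockout retinas. Of the 221 features, 7 had no read in any wild-type library, which is 3.17%, while 0.371% of all features had none. They lay over or near Ccdc136, Gngt2, Fabp7 and Pde6c. None of the 36097 features had no read in every knockout library, and the sources used here do not say how features were selected for the table. The lowest mean of a listed feature over all libraries was 2.00. Features with no wild-type read reached that level, and the tested ones the filter, only through their knockout values. A value of 0 allows for up to 3 reads, equal to between 2.28 and 4.11 normalised counts.

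The 11 libraries held, in the listed features, 3238184 to 4150460 reads each if wild-type and 3374221 to 4876429 if knockout. Summed over the 221 features, wild-type libraries had 5460 to 7346 normalised counts (median 5798) and knockout libraries 6009 to 8842 (median 7552). As a share of all listed features this was 0.141% to 0.171% in wild-type and 0.175% to 0.249% in knockout libraries, which did not overlap. Wild-type 1, the wild-type library with the fewest reads, had the highest wild-type sum. These are whole retinas, so that a change in the number of cells of a type and a change in RNA per cell cannot be told apart.

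Most tested features over rod genes were lower. As a background for the counts that follow, 15.6% of all tested features were higher and 12.6% lower. Over 13 rod genes with a feature (none lay over Gngt1 or Nr2e3), 27 of 38 tested features were lower and 4 higher, and their summed level was 3046 to 5143 normalised counts in wild-type and 359 to 568.5 in knockout libraries. Over 10 cone marker genes with a feature (none lay over Cnga3, Gnb3 or Opn1mw), 18 of 27 tested features were higher and 2 lower, with sums of 378 to 422 in wild-type and 1285 to 1989 in knockout libraries. Of the 45 features in that cone list, 39 are among the 221, so it is no independent evidence of their direction. No feature lay over the microglial or vascular markers looked for, and of 2 tested features over Müller glia markers 1 was lower and 0 were higher. Over bipolar cell markers 2 of 16 tested features were higher and 1 lower, over amacrine cell markers 0 of 3 and 1, and over pigment epithelium markers 0 of 10 and 1. The single tested features over a ganglion cell marker and over a lens marker were not called. The 2 features over a horizontal cell marker were below the filter, and their summed level was 0 to 1.01 normalised counts in wild-type and 5.05 to 15.9 in knockout libraries, which did not overlap. The part of these cell types in the results was not tested.

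**Figure D1:**
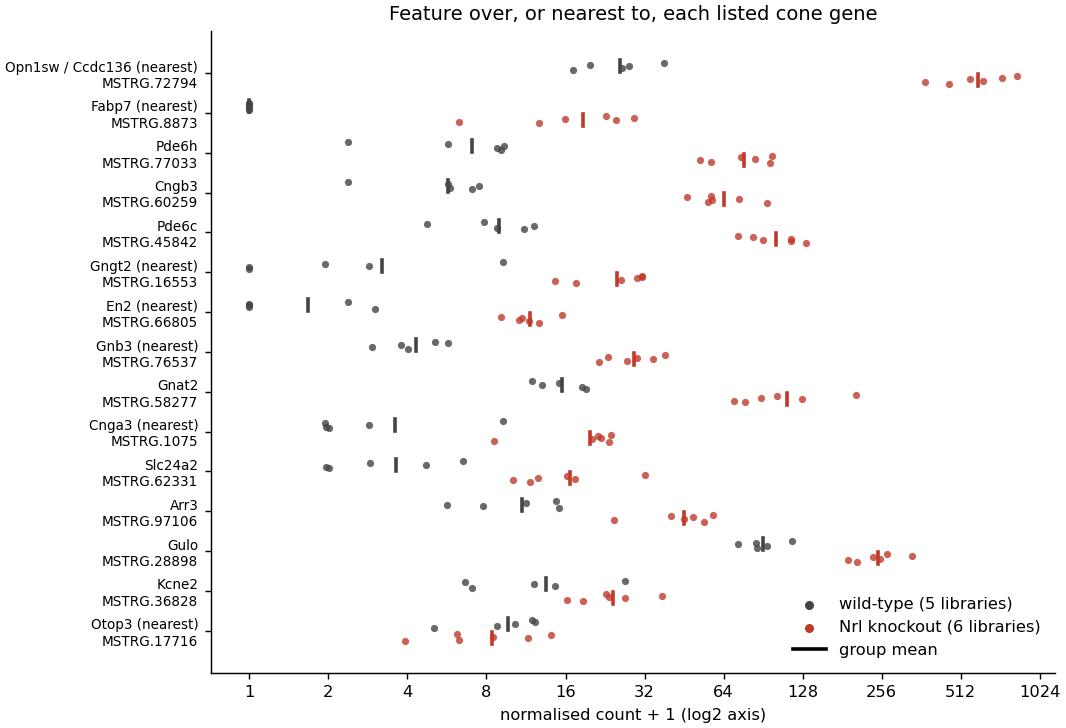
Normalised count plus 1 on a log2 axis in each library for the most abundant tested feature over each listed cone gene, or the tested feature nearest to its start where none overlaps it, with a vertical bar at each group mean. Grey points are the 5 wild-type and red points the 6 Nrl knockout libraries. The knockout points lie to the right without overlap for 12 of the 15 features, the exceptions being those of Cnga3, Kcne2 and Otop3. Over all tested features 10.9% were higher without overlap. Abundance was the mean over all 11 libraries, which favours features high in knockout libraries, so the 12 of 15 is partly set by the choice.

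Opn1sw encodes the short-wave cone opsin, and 3 features lay over its GENCODE gene body, all on the opposite strand. By RefSeq, whose Opn1sw gene is shorter, none of the 3 lies over the gene and all lie before its start. MSTRG.72794 (chr6:29388335-29390593, plus strand, 2259 bp) was read at 37.03, 18.8, 26.9, 25.1 and 16.1 normalised counts in wild-type replicates 1 to 5 and at 834, 735, 554, 624, 372 and 459.8 in knockout replicates 1 to 6. Every knockout library lay above every wild-type library. Its mean rose from 24.8 ± 8.14 (SD, n = 5) to 596 ± 172 (SD, n = 6), with a log2 difference of 4.54 ± 0.22 (SE, limma adjusted p = 6.88e-15, exact two-sided permutation p = 0.00216, the smallest that the 462 splits of 11 libraries allow). Only 5.93% of its length lay within the GENCODE gene body. Its middle stood 996 bp before the GENCODE start of Opn1sw and at -8951 bp from the RefSeq start, so that by RefSeq it lies between Opn1sw and Ccdc136.

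MSTRG.72793 (chr6:29385771-29386952, plus strand) lay wholly inside the GENCODE gene, over no exon, and at -5848 bp from the RefSeq start. It was read at 0, 0, 0, 2.90 and 2.02 in wild-type and at 53.03, 59.6, 43.98, 47.03, 31.9 and 58.6 in knockout replicates, with 5 reads in all wild-type libraries together and 314 in the knockout libraries. It had the largest log2 difference of the 134, 4.90 ± 0.37 (adjusted p = 4.49e-11), which for a feature this low in wild-type depends on the added 1. In the count tests MSTRG.8873 near Fabp7, which had no wild-type read, was ahead of it. The log2 differences of MSTRG.8873 and MSTRG.72793 were 7.03 and 5.75 in edgeR, 6.33 and 5.93 in DESeq2, and 6.53 and 5.58 in the authors' deposited table. The third feature over Opn1sw was below the filter and higher without it.

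The domain of Opn1sw and Ccdc136 held the most features, 36 spread over 1132 kb from the first to the last, of which 22 were tested and 11 were higher and 2 lower. Near the opsin, MSTRG.72789, antisense to the calcium-binding protein gene Calu, went from 0.390 ± 0.534 to 9.43 ± 1.36 normalised counts (mean ± SD over 5 and 6 libraries), a rise of 2.98 on the log2 scale. Calu is itself listed among the higher mRNAs of this domain, as are Ahcyl2, Flnc, Irf5 and Tspan33. Farther out, beyond a run of features that were not called, a group of higher features lay about Strip2 and the pseudogene Smkr-ps. MSTRG.72855 (antisense to Smkr-ps, chr6:29991330-29999172) was the most abundant of these. It was read at 233, 179.7, 214, 201 and 195 in wild-type and 891, 1071, 1007, 731, 508 and 967 in knockout replicates, without overlap, and rose by 2.03 ± 0.18 on the log2 scale (adjusted p = 6.38e-10). It lay 598942 bp from the start of Ccdc136. Its neighbours MSTRG.72854 (log2 difference 2.14) and MSTRG.72852 (1.90) were higher with it.

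Toward the other end of these features the direction turned. MSTRG.72871 (chr6:30180451-30187266, plus strand) was read at 997, 783, 894, 744 and 838 in wild-type and at 325, 341, 363, 259, 264 and 354 in knockout replicates. It fell by 1.42 ± 0.15 on the log2 scale (adjusted p = 2.81e-08), and no knockout library reached the lowest wild-type library. MSTRG.72863, antisense to Nrf1, fell by 1.14, from 342 ± 80.9 (SD, n = 5) to 159 ± 52.4 (SD, n = 6) normalised counts. The genes of the microRNAs miR-183, miR-96 and miR-182, which are abundant in photoreceptors, lie on the minus strand between these features, 10.7 kb from MSTRG.72871 at the nearest (Mir183) and 18.7 kb from MSTRG.72863 (Mir182). MSTRG.72866, which lies nearer to Mir182 at 8.399 kb, was not called (0.92, adjusted p = 0.208). Summed over all its features the domain had 1575 to 2028 normalised counts in wild-type and 1652 to 2878 in knockout libraries, which overlapped. Over Ccdc136 itself both features were below the filter and had no read in any wild-type library.

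**Figure D2:**
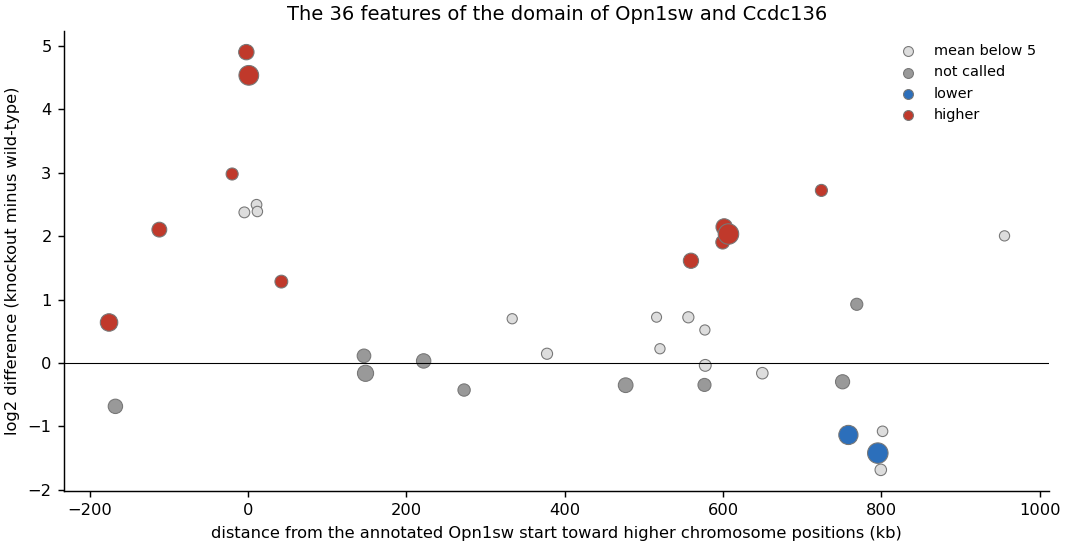
Log2 difference (knockout minus wild-type) of the 36 features in the domain of Opn1sw and Ccdc136 against their distance in kb from the annotated Opn1sw start, with larger points for more abundant features. Higher features stand about the GENCODE start of the opsin gene, at -175, -112, -20.0 and 42.1 kb and between 559 and 724 kb, and the 2 lower features at 758 and 795 kb.

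Transducin couples the opsin to the phosphodiesterase, and its cone subunits are encoded by Gnat2 (alpha), Gnb3 (beta) and Gngt2 (gamma). Over Gnat2 lay 5 features on the opposite strand, of which 3 were tested and 1 was higher. MSTRG.58277 (chr3:108094752-108097049, minus strand), which covers part of the gene's exons, was read at 10.97, 14.1, 12.1, 17.4 and 18.2 in wild-type and at 203, 101, 87.97, 127, 69.01 and 76.2 in knockout replicates. Knockout 1 stood highest, but the lowest knockout library was also above every wild-type library. The log2 difference was 2.77 ± 0.25 (adjusted p = 1.20e-09). The other tested features over Gnat2, both in the part of the gene farther from its start, were not called, with log2 differences of -0.43 and 0.16. Before the GENCODE start, MSTRG.58273, MSTRG.58266 and MSTRG.58265 were higher by 1.82, 1.48 and 1.47 on the log2 scale, the last at -47409 bp from that start. By the RefSeq gene body, MSTRG.58273 lies over Gnat2, 12.8% along it. In the same domain MSTRG.58243, antisense to Ahcyl1 and at -411183 bp from the Gnat2 start, had the largest fall of the 134. It went from 37.4 ± 10.8 (SD, n = 5) to 7.73 ± 4.70 (SD, n = 6), with a log2 difference of -2.29 ± 0.36 (adjusted p = 9.77e-06).

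No tested feature overlapped Gnb3. The nearest, MSTRG.76537 (chr6:124847557-124848141, antisense to the collagen-modifying enzyme gene P3h3), lay 7574 bp before its start and was read at 4.11, 4.70, 2.78, 1.93 and 3.03 in wild-type and 37.4, 22.2, 29.05, 33.6, 26.5 and 20.5 in knockout replicates. The groups did not overlap, and the log2 difference was 2.77 ± 0.29 (adjusted p = 1.75e-08). The rest of this domain did not follow it. Of 22 tested features 4 were higher and 5 lower, and the summed level was 1601 to 2225 normalised counts in wild-type and 1351 to 2086 in knockout libraries. Antisense to Atn1 (and to Gm45234, which overlaps it) lay 4 of the 5 lower features, among them MSTRG.76504 and MSTRG.76508. MSTRG.76504 went from 17.98 ± 6.82 (SD, n = 5) to 6.83 ± 5.11 (SD, n = 6) normalised counts, with a log2 difference of -1.45. MSTRG.76508 went from 10.9 ± 3.43 (SD, n = 5) to 3.65 ± 1.62 (SD, n = 6), with -1.39. The fifth, MSTRG.76571 in the non-coding gene 4930557K07Rik, which lies opposite to Zfp384, fell by 1.52 on the log2 scale, from 37.9 ± 7.45 (SD, n = 5) to 13.5 ± 6.35 (SD, n = 6). MSTRG.76503 and MSTRG.76506 lost their call without wild-type 3 or without wild-type 4, and MSTRG.76506 also without wild-type 1. The count of lower features in this domain was 3, with 4 higher, without wild-type 3. It was 4, with 5 higher, without wild-type 1, so which direction had more calls depended on single libraries. The most abundant feature of the 134, MSTRG.76551 in the non-coding gene A230083G16Rik opposite to Ptms, had 717 ± 110.1 (SD, n = 5) and 614 ± 112 (SD, n = 6) normalised counts and was not called (log2 difference -0.23, adjusted p = 0.336).

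The domain of Gngt2 held 7 features, and its 3 tested ones were all higher. MSTRG.16553 (chr11:95852241-95852672, intergenic, 15240 bp beyond the Gngt2 start) was read at 8.23, 0.941, 1.86, 0 and 0 in wild-type and 30.2, 30.3, 29.05, 24.96, 13.7 and 16.6 in knockout replicates, a log2 difference of 3.46 ± 0.46 (adjusted p = 7.80e-07). Wild-type 1 stood above the other wild-type libraries and below every knockout library. Its neighbour MSTRG.16554 rose by 3.06 on the log2 scale, from 6.00 ± 0.984 (SD, n = 5) to 58.8 ± 16.9 (SD, n = 6). MSTRG.16570, 239388 bp from the Gngt2 start, rose by 0.72, from 45.9 ± 9.19 (SD, n = 5) to 76.2 ± 13.3 (SD, n = 6). MSTRG.16551, the only feature over Gngt2 itself, was below the filter, with no read in wild-type and 9.04 ± 3.77 (SD, n = 6) in knockout libraries. The summed level of the domain was 47.3 to 75.4 in wild-type and 144 to 236 in knockout libraries.

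The cone phosphodiesterase has the catalytic subunit Pde6c and the inhibitory subunit Pde6h. Over Pde6c lay 11 features on the opposite strand, and they did not share a direction. MSTRG.45842 (chr19:38142415-38142607, minus strand, in an intron 9730 bp from the start) was read at 6.86, 3.76, 11.1, 7.74 and 10.1 in wild-type and 71.7, 81.8, 115, 89.3, 115 and 131 in knockout replicates, a log2 difference of 3.55 ± 0.25 (adjusted p = 1.28e-11). All knockout libraries lay above all wild-type libraries. Toward the far end of the gene 6 further features were tested, of which 0 were higher and 2 were lower. MSTRG.45852 fell by 0.69 on the log2 scale, from 53.98 ± 5.36 (SD, n = 5) to 33.6 ± 6.89 (SD, n = 6). MSTRG.45848 fell by 0.70, from 40.4 ± 7.85 (SD, n = 5) to 24.4 ± 5.38 (SD, n = 6), and lost its call without wild-type 2 or without wild-type 3. Beyond the gene, antisense to Fra10ac1, 4 features were read almost only in knockout libraries. MSTRG.45859 had no read in any wild-type library and 9.52 ± 4.34 (SD, n = 6) normalised counts in knockout libraries, at least 15.5-fold higher against a limit of 3 reads over the wild-type group. MSTRG.45829 and MSTRG.45830, intergenic and over 100 kb before the gene, were higher by 1.45 and 1.53.

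All 3 tested features of the Pde6h domain were higher, and all 3 lay over the gene on the opposite strand. MSTRG.77033 (chr6:136960461-136960728, minus strand), wholly over an exon, was read at 1.37, 4.70, 8.35, 7.74 and 8.07 in wild-type and 96.7, 73.7, 82.99, 50.9, 56.1 and 94.7 in knockout replicates, a log2 difference of 3.56 ± 0.31 (adjusted p = 6.18e-10). It lay 36762 bp after the GENCODE start and 6072 bp after the RefSeq start. MSTRG.77032 rose by 2.64 and MSTRG.77034 by 2.40. Over the whole domain the sum was 9.41 to 19.2 normalised counts in wild-type and 81.6 to 161 in knockout libraries, the largest ratio of group means of the 15 domains (8.48).

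The cyclic nucleotide-gated channel of cones is built from Cnga3 and Cngb3. No feature lay over Cnga3. Before its start, MSTRG.1075 (chr1:37196744-37200234) was read at 8.23, 0.941, 1.86, 0.967 and 1.01 in wild-type and 22.9, 20.2, 20.7, 19.2, 7.58 and 22.5 in knockout replicates, and knockout 5 stood below wild-type 1, so that the groups overlapped. Its log2 difference was 2.70 ± 0.41 (adjusted p = 6.14e-06, exact permutation p = 0.00649). Past the gene, MSTRG.1079 (chr1:37269926-37271104, intergenic) was read at 1.37, 0.941, 2.78, 0.967 and 1.01 in wild-type and 25.995, 31.3, 30.7, 34.6, 48.5 and 42.96 in knockout replicates, without overlap and with a log2 difference of 3.94 ± 0.31 (adjusted p = 5.97e-11).

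Over Cngb3 lay 9 features on the opposite strand, none over an exon. The 4 tested were all higher, and without the filter all 9 were. MSTRG.60259 (chr4:19445645-19445769, minus strand) was read at 1.37, 4.70, 6.50, 4.84 and 6.05 in wild-type and 56.1, 45.4, 72.2, 56.6, 54.6 and 92.8 in knockout replicates, without overlap, a log2 difference of 3.56 ± 0.29 (adjusted p = 1.99e-10). It lay 164857 bp into the gene, and MSTRG.60256 (log2 difference 3.25), MSTRG.60261 (2.88) and MSTRG.60263 (3.11) were spread along it. Before the start, MSTRG.60251 (chr4:19267568-19268996, minus strand) was read at 2.74, 3.76, 2.78, 0 and 3.03 in wild-type and 53.03, 65.6, 35.7, 51.8, 31.1 and 24.4 in knockout replicates and rose by 3.78 ± 0.37 (adjusted p = 4.08e-09). The most abundant feature of the domain did not follow. MSTRG.60238, at -1155358 bp from the start, had 392.04 ± 112 (SD, n = 5) and 295 ± 65.2 (SD, n = 6) normalised counts and was not called (log2 difference -0.40, adjusted p = 0.127).

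Slc24a2 encodes the sodium, calcium and potassium exchanger of cones, and both features over it were tested and higher. MSTRG.62331 (chr4:87221841-87222192, plus strand, intronic) was read at 5.49, 1.88, 3.71, 0.967 and 1.01 in wild-type and 31.2, 15.1, 11.6, 16.3, 9.10 and 10.7 in knockout replicates, a log2 difference of 2.26 ± 0.39 (adjusted p = 4.23e-05). Knockout 1 stood well above the other knockout libraries, and every knockout library lay above every wild-type library. MSTRG.62330, also over the gene, rose by 1.92. Of 9 tested features of the domain, 3 were higher and 0 lower, and the features not called lay beyond 100 kb on the other side of the start, the farthest at -1479794 bp.

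Arr3 encodes cone arrestin, which ends the activity of the opsin. All 4 tested features of its domain were higher, and the 8 features listed there lie within 18.2 kb. MSTRG.97106 (chrX:100607882-100608297, minus strand, intronic) was read at 13.7, 10.4, 4.64, 6.77 and 14.1 in wild-type and 57.2, 39.4, 48.1, 44.2, 23.5 and 52.7 in knockout replicates, without overlap, a log2 difference of 2.09 ± 0.29 (adjusted p = 1.69e-06). MSTRG.97105, also over Arr3 and near its start, rose by 1.70, and 4 features over the rest of the gene were below the filter and not called without it. Before the start, MSTRG.97100 rose by 1.70 and MSTRG.97099 by 0.86, both with overlapping groups.

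Kcne2 encodes an accessory subunit of potassium channels. MSTRG.36828 (chr16:92293414-92294318, minus strand, intronic) was read at 26.1, 5.65, 11.1, 13.5 and 6.05 in wild-type and 21.8, 36.3, 22.4, 25.9, 15.2 and 17.6 in knockout replicates. Wild-type 1 lay within the knockout range. The log2 difference was 0.99 ± 0.33 (adjusted p = 0.025, exact permutation p = 0.0563). On the whole reads of 9 libraries it was not called by edgeR (adjusted p = 0.206) or DESeq2 (adjusted p = 0.306), and in the authors' deposited table its adjusted p is 0.0590. Its call was also lost in limma without wild-type 2, wild-type 5, knockout 2 or knockout 4, with adjusted p-values between 0.0518 and 0.098. MSTRG.36822 and MSTRG.36823, the only called features of the 134 on the strand of a coding gene, were higher by 1.18 and 0.91. The latter lost its call without any of 6 libraries, which were wild-type 1 and 3 and knockout 1, 4, 5 and 6. The domain's count of higher features was 1 without knockout 4.

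Gulo encodes L-gulonolactone oxidase, which makes the last step of vitamin C synthesis, and the 4 tested features over it were all higher. MSTRG.28898 (chr14:66000852-66003333, plus strand), which touches an exon, was read at 115, 83.7, 71.5, 92.9 and 84.7 in wild-type and 268, 332, 237, 251, 189 and 206 in knockout replicates, without overlap, a log2 difference of 1.45 ± 0.18 (adjusted p = 3.19e-07). MSTRG.28895 (chr14:65992766-65993117, intronic) was read at 2.74, 0, 0, 2.90 and 4.03 in wild-type and 20.8, 20.2, 9.96, 14.4, 11.4 and 17.6 in knockout replicates and rose by 2.78 ± 0.44 (adjusted p = 1.18e-05). The other 10 tested features of the domain, none of them over Gulo, were not called. The most abundant of these, MSTRG.28887, had 278 ± 31.6 (SD, n = 5) and 233 ± 26.3 (SD, n = 6) normalised counts (log2 difference -0.25, adjusted p = 0.268).

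Fabp7 encodes a brain fatty acid-binding protein, and its domain also lists the mRNA of the neighbouring phosphodiesterase gene Smpdl3a. MSTRG.8873 (chr10:57796652-57797031, minus strand, intronic and antisense to Smpdl3a) had no read in any wild-type library and was read at 21.8, 28.3, 14.9, 23.995, 5.31 and 11.7 in knockout replicates. That is at least 28.8-fold higher against a limit of 3 reads over the wild-type group (adjusted p = 2.41e-08). MSTRG.8871 (chr10:57766336-57766689, intergenic) was read at 1.37, 0, 0, 0.967 and 1.01 in wild-type, 3 reads in all, and at 32.2, 23.2, 31.5, 29.8, 18.2 and 34.2 in knockout replicates. Its ratio of reads was 45.4, with a 95% exact interval of 15.3 to 222 that covers counting error only (adjusted p = 2.43e-10).

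En2 encodes a homeobox transcription factor, and 1 of 7 tested features of its domain was higher. MSTRG.66805 (chr5:28118635-28118954, intergenic, 46900 bp before the start) was read at 1.37, 0, 0, 0 and 2.02 in wild-type, again 3 reads in all, and at 14.6, 8.08, 9.96, 9.60, 10.6 and 11.7 in knockout replicates. The ratio of reads was 17.5 with an exact interval of 5.73 to 86.7 (adjusted p = 3.20e-06).

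Otop3 encodes a proton channel, and its domain had more lower than higher calls. Of 11 tested features 2 were higher and 3 lower, with sums of 366 to 543 normalised counts in wild-type and 269.97 to 408 in knockout libraries. None overlapped Otop3, and the nearest, MSTRG.17716 (chr11:115374693-115374858, intergenic, 40044 bp after the start), was read at 10.97, 11.3, 9.28, 7.74 and 4.03 in wild-type and 5.20, 13.1, 7.47, 10.6, 5.31 and 2.93 in knockout replicates and was not called (log2 difference -0.26, adjusted p = 0.68). MSTRG.17778 (chr11:115833368-115833893), antisense to the cell polarity gene Llgl2, was read at 58.97, 41.4, 32.5, 37.7 and 26.2 in wild-type and 14.6, 21.2, 14.1, 13.4, 14.4 and 15.6 in knockout replicates and fell by 1.25 ± 0.25 on the log2 scale (adjusted p = 0.000203). MSTRG.17680 and MSTRG.17681, antisense to Rab37, were also lower (-0.97 and -1.20). The deposited table lists Llgl2 and Rab37 as lower mRNAs of this domain. Of the 8 calls that were lost without some library, 3 lay here. MSTRG.17744 lost its call without any of 5 libraries (wild-type 3 and 4 and knockout 1, 2 and 4), MSTRG.17797 without wild-type 4 and MSTRG.17680 without wild-type 3. The count of higher features was 0 without wild-type 4 and 1 without wild-type 3, knockout 1, knockout 2 or knockout 4.

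**Figure D3:**
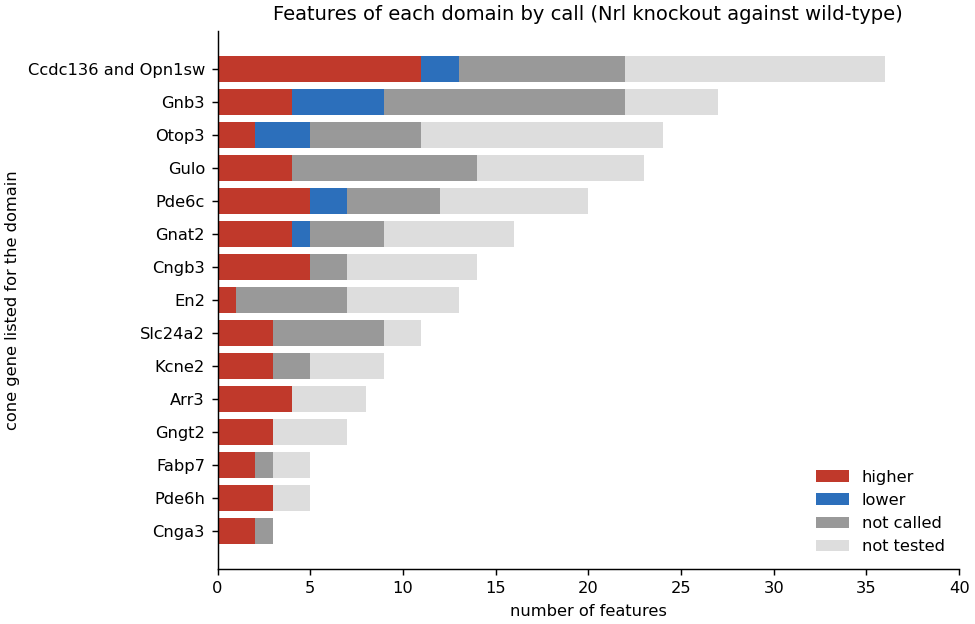
Number of features in each of the 15 domains, split into those higher (red), lower (blue), tested and not called (dark grey) and below the filter (light grey). The domains of Arr3, Gngt2 and Pde6h have only higher calls among their tested features. Those of Gnb3 (5 lower, 4 higher) and Otop3 (3 lower, 2 higher) have more lower than higher calls. For Gnb3 this order reversed without wild-type 1 or without wild-type 3.

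The domains of Otop3, Opn1sw with Ccdc136, Slc24a2 and En2 also list a lower mRNA. In these 4 domains 17 of 49 tested features were higher (34.7%) and 5 lower (10.2%), with a median log2 difference of 0.03. In the other 11 domains 39 of 85 were higher (45.9%) and 8 lower (9.41%), with a median of 0.59. The difference between the 4 and the 11 domains was not tested. Of all tested features 15.6% were higher and 12.6% lower, and of those in domains outside the 15 that list any higher mRNA 24.9% and 10.3%. Leaving out the domain of Opn1sw and Ccdc136, which holds the most features, 45 of 112 tested features were higher (40.2%) and 11 lower (9.82%), with a median of 0.27.

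The share of higher features was larger near the cone gene than far from it, a difference that was not tested. Of 48 features over the GENCODE body of a listed gene, all were on the opposite strand. Among the 28 tested, 20 were higher (71.4%) and 2 lower (7.14%), with a median log2 difference of 2.18. Of all tested features antisense to a coding gene, 16.3% were higher and 16.7% lower. Some of the 28 passed the filter only through knockout values, such as MSTRG.77034 with means of 0.960 in wild-type and 9.37 in knockout libraries. Without the filter 32 of the 48 were higher and 2 lower (median 1.88), against 12% and 9.12% of all features. Up to 10 kb from the start without overlap, 4 of 4 tested features were higher, and from 10 to 100 kb 16 of 35 were higher and 4 lower (median 0.38). Beyond 100 kb 16 of 67 were higher and 7 lower, with a median of 0.06 and 23.9% higher, against 15.6% of all tested features and 24.9% of those in other domains with a higher mRNA. Without the filter 18 of the 118 features there were higher and 10 lower (median 0.04). The summed level of the features over gene bodies was 447 to 499 normalised counts in wild-type and 1458 to 2206 in knockout libraries. That of features beyond 100 kb was 3359 to 4546 and 2844 to 4265, which overlapped.

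**Figure D4:**
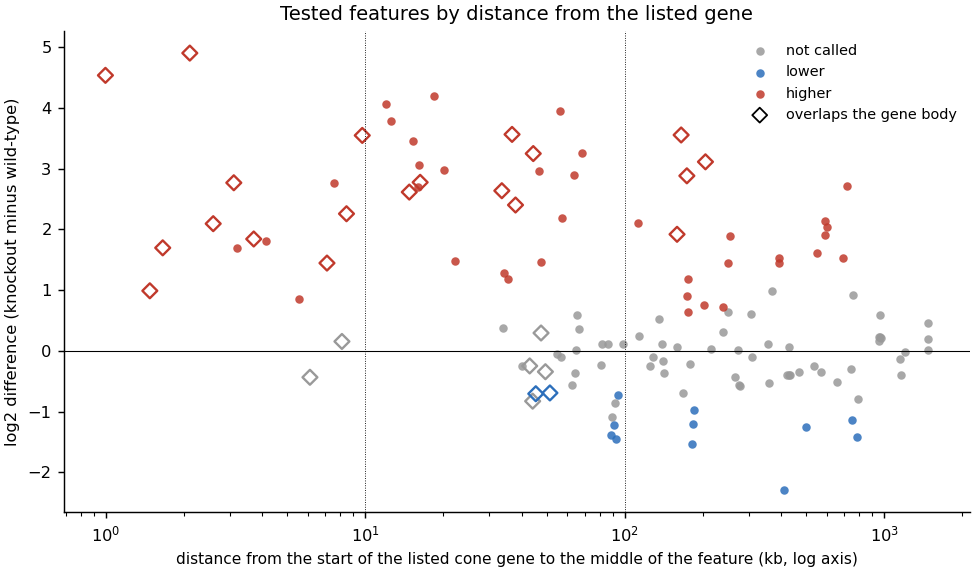
Log2 difference (knockout minus wild-type) of the 134 tested features against the distance in kb, on a log axis, from the start of the listed cone gene to the middle of the feature, with diamonds for features over the gene body and dotted lines at 10 and 100 kb. Red symbols (higher) fill most of the left side, and grey symbols (not called) fill most of the area beyond 100 kb, where the median is 0.06.

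By place in the annotation, 111 of the 221 features were antisense to a coding gene, 94 intergenic, 6 antisense to a non-coding gene, 5 sense to a coding gene and 5 in an annotated non-coding gene. Antisense to a coding gene, 29 of 66 tested features were higher (43.9%) and 11 lower (16.7%). Over all tested features of that place 16.3% were higher and 16.7% lower, so the share of lower features was the same. Among intergenic features 22 of 59 were higher and 1 lower, against 16.3% and 10.9%. So 11 of the 13 lower features were antisense to a coding gene, and for none of these 11 except the 2 over Pde6c was that gene a listed cone gene. Libraries were stranded per the labels' protocols, but the sources used here do not say whether counting used strand. Reads of an antisense feature and of the coding gene opposite to it therefore cannot be told apart with certainty, and the coding gene's own change was not measured here.

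Placed along the GENCODE gene bodies, in the part of a gene nearer to its start 11 of 11 tested features were higher, and in the part nearer to its end 9 of 17 were higher and 2 lower. The 8 that were not higher lay over Pde6c (6 tested) and Gnat2 (2 tested), and all 9 others in that part, over Cngb3, Gulo, Pde6h and Slc24a2, were higher. Of all tested features antisense to a coding gene, 16.3% were higher and 16.7% lower. The counts by part depend on the filter. Below it lay the 4 features in the second part of Arr3. MSTRG.97105, MSTRG.72793 and MSTRG.62331 (first part, wild-type means 2.02, 0.984 and 2.61) passed it only through knockout values, as did MSTRG.77034 in the second. MSTRG.72794 was counted in the first part though its middle lies before the GENCODE start. Of the 18 features in the part nearer to the start 5 touched an exon, and of the 30 in the other part 9 did. This placing rests on the GENCODE starts. Without Opn1sw and Pde6h, whose starts differ most between the annotations, 9 of 9 tested features were higher in the part nearer to the start, and 6 of 14 were higher and 2 lower in the other. Over RefSeq gene bodies, chosen as an alternative after the data were seen, 10 of 10 were higher in the first part, and 9 of 17 were higher and 2 lower in the second. Single features change part between the annotations, among them MSTRG.58277 over Gnat2, which lies in the first part by GENCODE and 62.2% along the gene by RefSeq. The difference between the parts was not tested.

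**Figure D5:**
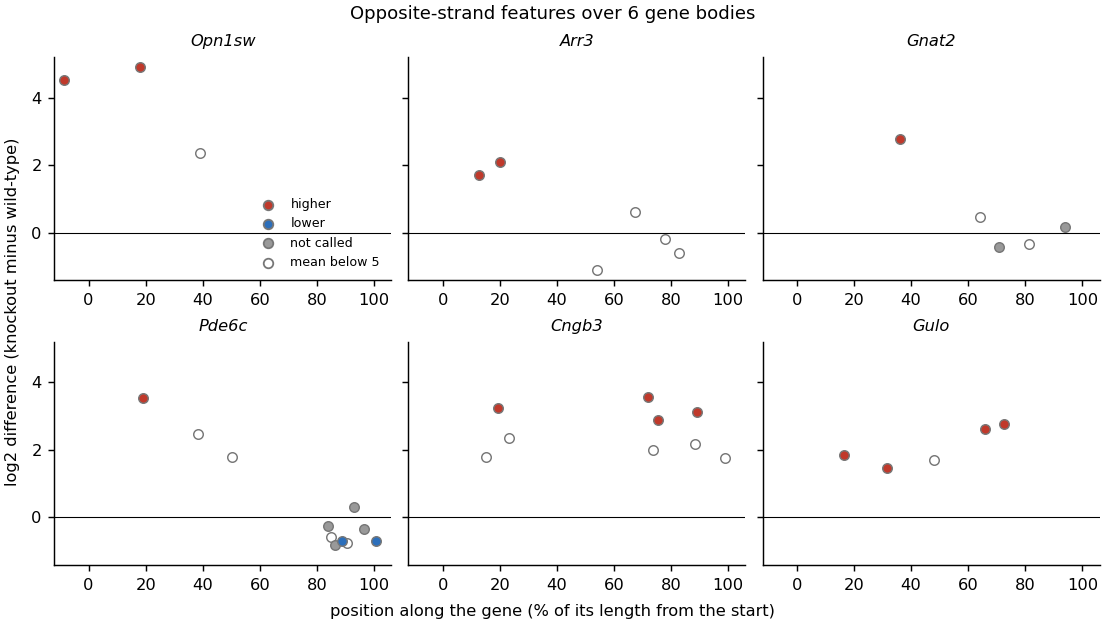
Log2 difference (knockout minus wild-type) of the opposite-strand features over 6 cone genes against their position along the gene in percent of its GENCODE length from the GENCODE start, a placing that by RefSeq does not hold for Opn1sw. Filled points were tested and open points had a mean below 5, and over Pde6c the points near the end lie below or about 0 while that at 19.0% lies at 3.55.

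Other genes that cones use, or that act in photoreceptors, gave a mixed picture. Of 32 such genes, none among the 18, 19 had a tested feature over them, and of these 44 features 14 were higher and 17 lower, with a median log2 difference of -0.02. Over all tested features 15.6% were higher and 12.6% lower. Higher features lay over the genes of transcription factors, Esrrg, Neurod1, Otx2, Prdm1, Rxrg and Thrb. Rxrg and Thrb encode nuclear receptors known to act in cone differentiation. Both are also in the cone marker list above, so their features were already counted there. MSTRG.5946 over Rxrg rose from 3.09 ± 2.35 (SD, n = 5) to 23.3 ± 7.33 (SD, n = 6) normalised counts (log2 difference 2.68), and MSTRG.26903 over Thrb from 6.79 ± 6.51 to 31.5 ± 12.7 (2.31). Lower features lay over genes that rods also use, such as Grk1, Guca1a, Prph2, Rgs9 and Rp1, and over the transcription factor gene Crx. Guca1a, which encodes a guanylate cyclase activator, had MSTRG.39545 at 199 ± 107 in wild-type and 22.1 ± 9.78 in knockout libraries (log2 difference -3.11).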

How the data were processed

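Retina RNA depleted of polyadenylated transcripts was sequenced as stranded single-end reads of 50 bp, per the labels' protocols, in 5 wild-type and 6 Nrl knockout libraries. The deposited table gives a signal per library. Per the file headers, this signal is a read count that the authors normalised with DESeq2, with positions on mm10. The authors' own comparison gave the deposited log2 fold change and standard error, the deposited Wald score, and each deposited p-value before and after adjustment. The submitters' processing notes name the builds mm9 and mm10 and the tools Cuffdiff, Cufflinks 2.2.1 and TopHat2 2.0.10 without their roles. The sources used here do not name the counting tool. Of 36180 lines, 83 repeat a feature in another domain, and each feature was used 1 time. Starts in the table count from 0 (after adding 1, the spans of 142 of 155 Ensembl-named features equal those of GENCODE M21), so 1 was added.

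The members and gene lists were chosen with earlier results of these data known. limma 3.58.1 in R 4.3.3 (lmFit, eBayes with trend and robust) was run on log2(normalised count + 1) over the 21395 features with a mean of at least 5, two-sided, group as the only term, Benjamini-Hochberg adjusted p below 0.05. Log2 differences on this scale understate changes of low features. Exact two-sided permutation tests used all 462 splits. On data simulated for this comparison with 21395 features, recovery by limma was 53 of 62 at 4-fold, 20 of 57 at 2-fold and 4 of 81 at 1.5-fold, and 7 calls were false. The simulation changed only 200 features and gave all the same spread beyond counting error (negative binomial dispersion 0.05). In the data 28.1% of tested features were called, so recovery and false calls there may differ from these numbers. All values were whole multiples of the value of 1 read in that library (tolerance 0.001, 100% of values). These reads, for 9 libraries, went into DESeq2 1.42.0 and the quasi-likelihood test of edgeR 4.0.16. Wild-type 5 and knockout 2, where 1 read is worth 1.01 normalised counts, were left out because a scale so close to 1 did not pass the check for recovered reads. edgeR called 5733 features and DESeq2 5468. Intervals and floors (3 reads) cover counting error only, since PCR reads without molecular identifiers are not independent molecules.

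Named features follow a rule. For each listed gene it takes the most abundant tested feature over it, or the nearest tested one. For each domain it takes the called feature with the largest difference and no overlap between groups. Over all 221 it takes the 5 most abundant, the 5 largest rises and falls and the 3 most abundant not called. Others named in the text were chosen after their values were seen, as members of a count of 5 or fewer, of a domain or of a gene body. Features were placed with GENCODE M21 and promoters taken from RefSeq (GRCm38.p6, matched by symbol for 12 of 18 genes). A planned search for motifs before each feature was not run here. Alternatives were the pseudocount, the filter, TMM factors, the count tests, the variance model, a replicate block, a fold threshold and leaving out each library.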

Additional observations from a re-analysis of the deposited data

Results flagged for a closer look

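Libraries far from the others of their group were looked for in 89 groups of values, the wild-type and knockout libraries of each of the 30 named features and of each domain's sum, leaving out groups with no spread. In 12 groups the highest or lowest library stood apart by Dixon's 95% critical value, where chance flags about 1 in 20 groups. These groups are not independent, since the sums contain the features.

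Wild-type 1 accounted for 6 of the 12. It was highest in the domain sums of Otop3 (543 normalised counts, the others 366 to 398), Kcne2 (165, the others 88.2 to 109), En2 (100.1, the others 56.1 to 67.8) and Opn1sw with Ccdc136 (2028, the others 1575 to 1698). It was also highest for MSTRG.1075 before Cnga3 (8.23, the others 0.941 to 1.86) and for MSTRG.16553 after Gngt2 (8.23, the others 0 to 1.86). This library had the fewest reads in features, 3238184, and 1 read in it is worth 1.37 normalised counts. Whether that bears on these values was not tested.

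Of the other wild-type libraries, wild-type 3 was highest for MSTRG.1079 (2.78, the others 0.941 to 1.37) and wild-type 4 was lowest for MSTRG.60251 before Cngb3 (0, the others 2.74 to 3.76). These are counts of 4 reads or fewer.

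Among knockout libraries, knockout 1 was highest in the domain sum of Gnat2 (446, the others 207 to 297) and for MSTRG.62331 over Slc24a2 (31.2, the others 9.10 to 16.3). Knockout 2 was highest for MSTRG.17778 antisense to Llgl2 (21.2, the others 13.4 to 15.6), and knockout 5 was lowest for MSTRG.1075 (7.58, the others 19.2 to 22.9). Without each of these libraries in turn, the features named here that were called remained called.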

How the results depend on the processing

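Counts of higher and lower features in the 15 domains were recomputed under 22 alternatives. For higher features, 21 of 22 gave a count within 1.5 times of 56, and for lower features all 22 gave one within 1.5 times of 13. The exception was the filter of a mean of at least 20, which tests fewer features, with 25 members higher, and 1722 higher and 1628 lower of all features (20.8% and 19.7%). Leaving out each library in turn gave 53 to 57 members higher and 9 to 15 lower, and medians of 0.27 to 0.40. Of the 69 calls, 61 were kept whichever library was left out. edgeR called 54 higher and 12 lower and DESeq2 53 and 11, sharing 65 and 64 of the 69 calls, and 0 calls changed sign under any alternative. Fitted with the replicate number as a replicate block, 57 were higher and 15 lower (all features 3727 and 3189). Same-numbered libraries correlated at 0.29, 0.001, 0.12, 0.05 and 0.27 (mean 0.15, against -0.03 for other pairs). Of these 5 values 3 were over 0.1, and 1 of 5 wild-type libraries correlated best with its own number, so a pairing was neither established nor taken as absent. For single named features 610 of 618 values kept direction and call, and the 8 that lost the call were all of MSTRG.36828 over Kcne2. Its log2 difference was 0.99 without trend and robust (adjusted p = 0.0518). For counts in a domain, 27 of 330 values for higher and 10 of 330 for lower features differed by over 1.5 times. The filter left 87 members untested, and without it 76 members were higher and 17 lower. Whether depth limits these calls was not tested.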

Other observations

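Summed over all features of a domain, the knockout libraries lay above the wild-type libraries without overlap in 7 of the 15 domains, those of Pde6h, Gngt2, Fabp7, Cnga3, Pde6c, Gulo and Slc24a2. All 15 were chosen because they list a higher mRNA. Sums of other domains were not made, so the 7 of 15 has no background to be read against. The ratios of group means there ran from 8.48 (Pde6h) and 3.14 (Gngt2) down to 1.37 (Gulo) and 1.27 (Slc24a2). In the domains of Gnb3 and Otop3 the ratio was below 1, at 0.942 and 0.795, with overlapping groups. A sum is set mostly by the most abundant features of a domain, and in the domain of Cngb3 the uncalled MSTRG.60238 alone had 308 to 580.1 of the 350.2 to 609 normalised counts in wild-type libraries, while all 4 tested features over the gene were higher.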
